A study of Mus musculus with 12 samples.

Results

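The Wnt and beta-catenin target genes described here are 10 genes, Axin2, Lef1, Tcf7, Tcf7l1, Sp5, Cdx1, Nkd1, Apcdd1, Notum and Rnf43. They were taken by gene symbol from the 3 deposited expression tables, and all 10 were found among the 19718 genes that the 3 tables share. RNA-seq of mouse embryonic stem cells gave 12 libraries, 2 for each of 6 groups. Levels are FPKM, fragment counts divided by transcript length and sequencing depth, so they can be compared between genes of different length.

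Of the 6 groups, 4 were Foxd3fl/fl;Cre-ER cells, in which tamoxifen-activated Cre recombinase deletes a floxed Foxd3 gene, a forkhead transcription factor of pluripotent cells. SL floxed cells (Foxd3fl/fl, no tamoxifen) and SL deleted cells (Foxd3-/-, 4-hydroxytamoxifen at 2 µM for 3 days) grew in 15% serum with LIF, the cytokine that sustains mouse embryonic stem cells, on irradiated embryonic fibroblasts as feeders. The 2i floxed and 2i deleted groups had the same genotypes and the same tamoxifen difference, but grew in serum-free N2B27 medium with LIF, the MEK inhibitor PD0325901 at 0.4 µM and the GSK3 inhibitor CHIR99021 at 3 µM. The labels name no feeders for 2i. The other two groups came from another line, LF2: wild-type cells (WT) and tetON Foxd3 cells, whose doxycycline-inducible transgene expresses Foxd3. Both were labelled as treated with doxycycline, for which the protocol gives 1 µg/µl and 3 days, and both grew in 15% serum with LIF without feeders. No group had tamoxifen without the floxed allele, and the labels do not say how many clones each line represents. Nor do they say whether a group's 2 libraries are from separate cultures, and p-values therefore measure only the spread between these libraries, which may be technical.

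In the canonical Wnt pathway, a complex built on Axin and APC holds beta-catenin so that the kinases CK1 and GSK3 can mark it for destruction. Wnt binding to Frizzled and LRP receptors stops this, as does a GSK3 inhibitor, and beta-catenin then enters the nucleus and joins the DNA-binding proteins Tcf7, Lef1, Tcf7l1 and Tcf7l2. In mouse embryonic stem cells Tcf7l1 acts mainly as a repressor, also of pluripotency genes, and beta-catenin relieves that repression. Several targets feed back on the pathway: Axin2 rebuilds the destruction complex, Nkd1 binds Dishevelled, Apcdd1 and the secreted enzyme Notum act on Wnt proteins outside the cell, and Rnf43 removes Frizzled from the cell surface.

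CTTTGAT is the core of the sequence that TCF and LEF proteins bind. The upstream windows of 2 genes are shown because Sp5 and Axin2 are the usual readouts of the pathway and both were lower in 2i in the comparison below. Each runs over the 250 bases before the start site in RefSeq (GRCm38.p6), at chr2:70474673-70474922 for Sp5 and chr11:108920099-108920348 for Axin2, both on the plus strand. Capitals mark CTTTGAT, which was searched on both strands.
Sp5: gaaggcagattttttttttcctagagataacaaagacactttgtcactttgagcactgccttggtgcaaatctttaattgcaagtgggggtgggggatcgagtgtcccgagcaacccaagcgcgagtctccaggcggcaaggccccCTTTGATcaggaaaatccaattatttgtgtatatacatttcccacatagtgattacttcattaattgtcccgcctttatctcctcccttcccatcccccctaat
Axin2: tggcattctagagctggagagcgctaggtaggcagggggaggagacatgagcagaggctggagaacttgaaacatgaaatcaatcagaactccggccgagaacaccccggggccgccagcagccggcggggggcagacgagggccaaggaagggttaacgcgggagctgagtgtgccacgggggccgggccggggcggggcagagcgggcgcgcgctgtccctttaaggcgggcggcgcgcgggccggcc
The Sp5 window held 1 match, which starts 104 bases before the start site, and the Axin2 window held 0 matches. In RefSeq windows of this length the motif was present in 1053 of 32851, or 3.21%. Of the 10 members, 7 matched an entry (all but Cdx1, Apcdd1 and Notum), with 12 windows between them, and Sp5 was the only one of the 7 with a match. These letters are a description of the window, not a measured binding site.

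All 10 embryonic stem cell markers examined, such as Pou5f1 and Sox2, were at 1 FPKM or more in both libraries of every group. Fibroblast markers, 20 genes such as Col1a1 and Bgn, summed to 521 and 562 FPKM in SL floxed libraries and 835 and 728 FPKM in SL deleted libraries. Their sums were 335 and 313 FPKM in 2i floxed, 369 and 358 FPKM in 2i deleted, 79.1 and 68.9 FPKM in WT and 123 and 110 FPKM in tetON Foxd3. Most of the 2i sum was Fn1, a fibronectin gene, at 315 and 289 FPKM in 2i floxed. Lum was listed at 0 in all 4 libraries in 2i, and was no higher than 0.0915 FPKM in SL. Of the 20 markers 17 were at 1 FPKM or more in both libraries of each SL group. That number was 9 in 2i floxed and 7 in 2i labelled deleted. Foxd3 itself was at 4.53 and 4.81 FPKM in SL floxed and 1.62 and 1.83 FPKM in SL deleted libraries, and at 10.6 and 14.1 FPKM in WT and 53.2 and 50.1 FPKM in tetON Foxd3. In 2i it was at 2.51 and 2.42 FPKM in floxed libraries and 2.07 and 2.45 FPKM in those labelled deleted, so the groups overlapped there (log2 difference -0.09, adjusted p 0.461), and the data do not bear out the deleted label in 2i. The authors' deposited table gives Foxd3 there a 1.7-fold higher value in the libraries labelled deleted, opposite to the label, with an adjusted p of 9.43e-06 when its p-values are adjusted here. The summed mean reads per group were 24278898 to 27062508 in the 2i groups and 52789850 to 54096080 in the other 4. The depth of single libraries is not known, and counting error cannot be given per value.

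The TCF and LEF genes come first. For these and the other members, the share of all genes whose groups separate likewise was not counted, so orders and overlaps are descriptions. Tcf7 (chr11:52252371-52283014, GRCm38), which mostly acts as an activator with beta-catenin, was at 63.9 and 65.3 FPKM in SL floxed, 48.7 and 57.0 FPKM in SL deleted, 74.9 and 71.0 FPKM in 2i floxed and 42.4 and 44.8 FPKM in 2i labelled deleted libraries. It was at 22.4 and 19.8 FPKM in WT and 36.3 and 28.9 FPKM in tetON Foxd3. No 2 neighbouring groups of Tcf7 overlapped, in the order 2i floxed, SL floxed, SL deleted, 2i labelled deleted, tetON Foxd3 and WT. Lef1 (chr3:131110471-131224356) was at 31.3 and 22.4 FPKM in SL floxed and 20.5 and 22.9 FPKM in SL deleted libraries. In 2i it was at 3.30 and 2.62 FPKM in floxed and 0.625 and 0.948 FPKM in libraries labelled deleted, and without feeders at 0.128 and 0.153 FPKM in WT and 0.260 and 0.384 FPKM in tetON Foxd3. The SL groups overlapped each other and lay above all other libraries. Tcf7l1 (chr6:72626378-72789254) was at 48.5 and 31.0 FPKM in SL floxed, 46.2 and 29.6 FPKM in SL deleted, 15.0 and 14.1 FPKM in 2i floxed and 38.3 and 43.7 FPKM in 2i labelled deleted libraries. It was at 28.8 and 41.0 FPKM in WT and 49.4 and 55.1 FPKM in tetON Foxd3. The 2i floxed libraries stood below all others and the tetON Foxd3 libraries above all others, and replicate 1 was the higher library in both SL groups.

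Axin2 (chr11:108920349-108950783) was at 12.6 and 15.5 FPKM in SL floxed, 12.3 and 13.2 FPKM in SL deleted, 4.88 and 4.28 FPKM in 2i floxed and 7.07 and 7.23 FPKM in 2i labelled deleted libraries. It was at 1.11 and 2.09 FPKM in WT and 0.979 and 3.20 FPKM in tetON Foxd3. The order was thus SL, 2i labelled deleted, 2i floxed and the feeder-free lines, with overlap within the SL pair and within the feeder-free pair. Sp5 (chr2:70474923-70477729), a zinc-finger repressor that Wnt signals switch on, was at 4.96 and 4.06 FPKM in SL floxed and 4.58 and 5.0 FPKM in SL deleted libraries. In the other 8 libraries Sp5 lay between 0.225 and 0.536 FPKM, so only the SL libraries exceeded 1 FPKM.

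The remaining members were low or varied between replicates. Apcdd1, a membrane protein that inhibits Wnt signals, was at 1.47 and 1.90 FPKM in SL floxed, 1.99 and 2.11 FPKM in SL deleted, 1.05 and 1.17 FPKM in 2i floxed and 3.26 and 3.08 FPKM in 2i labelled deleted libraries. It was at 1.56 and 1.83 FPKM in WT and 2.61 and 2.54 FPKM in tetON Foxd3. Its highest group was 2i labelled deleted and its lowest 2i floxed, and neither overlapped any other group. Notum (chr11:120653788-120661175) was at 11.7 and 4.71 FPKM in SL floxed, 9.98 and 6.63 FPKM in SL deleted, 10.8 and 10.7 FPKM in 2i floxed, 7.80 and 9.64 FPKM in 2i labelled deleted, 9.51 and 20.9 FPKM in WT and 6.95 and 10.2 FPKM in tetON Foxd3 libraries. The replicates of SL floxed and of WT lay far apart, and most of the groups overlapped.

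Nkd1 (chr8:88521354-88594884) was at 0.603 and 1.19 FPKM in SL floxed, 0.586 and 0.826 FPKM in SL deleted, 0.390 and 0.547 FPKM in 2i floxed, 0.557 and 0.641 FPKM in 2i labelled deleted, 0.275 and 0.472 FPKM in WT and 0.915 and 0.905 FPKM in tetON Foxd3 libraries. Rnf43 (chr11:87662722-87735539) was at 0.507 and 1.01 FPKM in SL floxed, 0.588 and 0.600 FPKM in SL deleted, 0.868 and 0.528 FPKM in 2i floxed, 0.363 and 0.700 FPKM in 2i labelled deleted, 0.575 and 0.0828 FPKM in WT and 0.413 and 0.166 FPKM in tetON Foxd3 libraries. Cdx1, a homeobox gene of the posterior embryo, was at 0.450 and 0.118 FPKM in SL floxed, 0.131 and 0.0736 FPKM in SL deleted, 0.05 and 0.0181 FPKM in 2i floxed, 0.0883 and 0.196 FPKM in 2i labelled deleted, 0.0615 and 0.157 FPKM in WT and 0.165 and 0.880 FPKM in tetON Foxd3 libraries. These 3 genes had a mean under 1 FPKM in all 6 groups and so were left out of the main tests. Tested without that minimum and with all libraries in, they did not pass in any comparison.

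**Figure D1:**
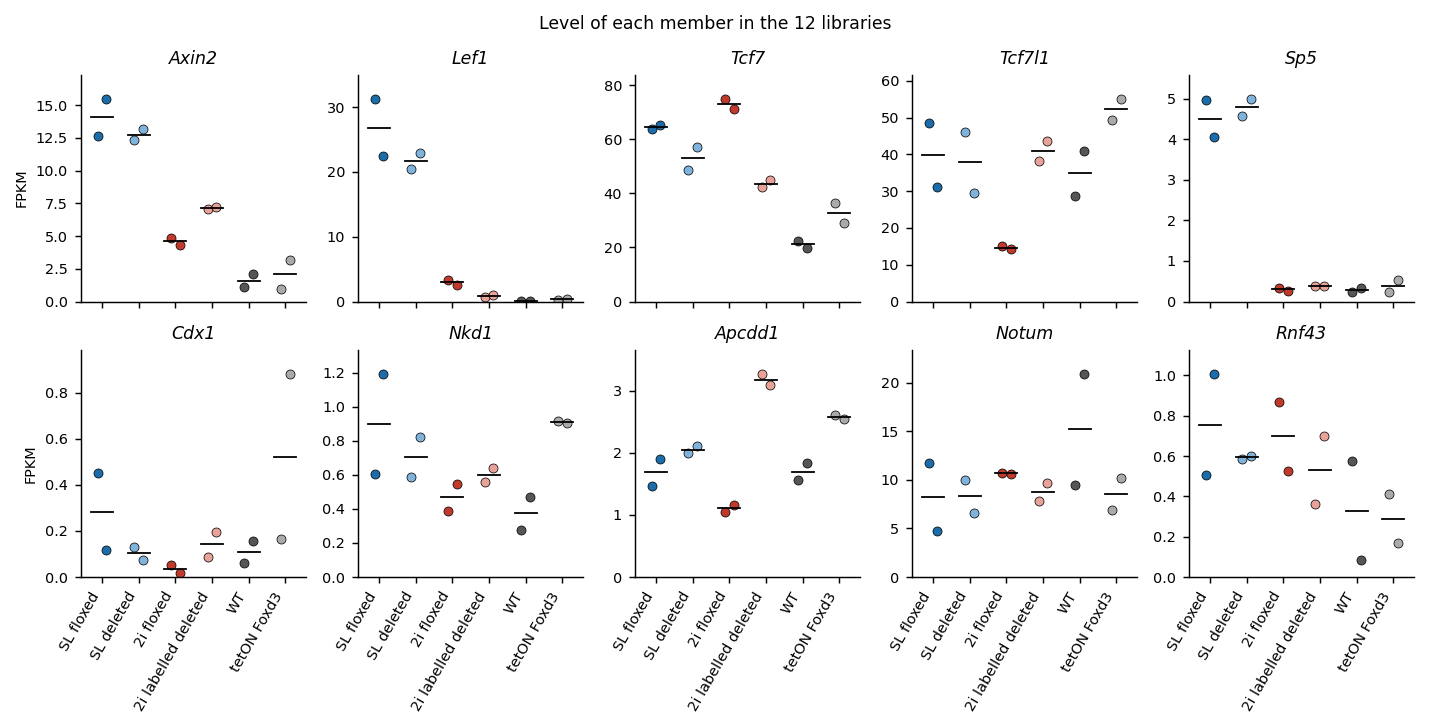
FPKM (vertical axis, linear from 0, a separate scale per gene) of the 10 members in each of the 12 libraries, by group; points are libraries and bars the mean of 2. Lef1 and Sp5 are high in the 4 SL libraries alone, Tcf7l1 is lowest in 2i floxed, and Cdx1, Nkd1 and Rnf43 stay near or under 1 FPKM.

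The first comparison asked how the targets stood in medium with a GSK3 inhibitor, as 2i floxed against SL floxed cells. Of the 7 members tested, 4 were lower in 2i and 0 were higher, with a median log2 difference of -1.35 against -0.23 over all 12145 genes tested. Lef1 fell by 2.80 on the log2 scale of FPKM + 1 (SE 0.19, adjusted p 2.67e-05), a 9.07-fold lower mean FPKM. Sp5 fell by 2.08 (SE 0.15, adjusted p 3.77e-05), a 15.2-fold lower mean, and Axin2 fell by 1.43 (SE 0.15, adjusted p 0.000186), a 3.07-fold lower mean. Tcf7l1 fell by 1.35 (SE 0.19, adjusted p 0.000696), a 2.72-fold lower mean. In each of these 4 both 2i libraries lay below both SL libraries, and the share of all genes that separate so was not counted.

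The other 3 tested members did not pass: Tcf7 had a log2 difference of 0.17 (adjusted p 0.132), Apcdd1 -0.35 (adjusted p 0.0738) and Notum 0.46 (adjusted p 0.247). These p-values come from limma over all genes, adjusted by the Benjamini-Hochberg method, and the threshold was 0.05. By the same call 22.2% of all genes were higher and 43.2% lower in 2i floxed. Sp5 could enter the test only through its SL level, so its difference was built into its selection, and the member count is a description. The 6 members that reached the minimum in both groups held 3 lower and 0 higher, with a median of -0.85. After median-of-ratios scaling of the 4 libraries, which brought the median of all genes to 0.04, the calls over all genes turned from 2702 higher and 5246 lower to 4049 higher and 3611 lower. The same 4 members were then still lower, and Tcf7 was called higher (0.46, adjusted p 0.0041). Without replicate 1 of SL floxed, Notum was called higher (1.04, adjusted p 0.000404) and Apcdd1 lower (-0.46, adjusted p 0.0099). Nkd1 reached the expression minimum only in that fit and only through SL, with a log2 difference of -0.58 there. In the fit without a filter and with all libraries in, Nkd1 did not pass (-0.35, adjusted p 0.136). Apcdd1 was also called lower in the fit pooled over 12 libraries (adjusted p 0.0271), and without replicate 2 of SL floxed Tcf7 was called higher (0.19, adjusted p 0.0487).

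The authors' mean reads, taken as a share of each group's summed reads, gave the same directions for these genes without FPKM. The log2 ratio of the shares, 2i floxed over SL floxed, was -1.50 for Axin2, -2.88 for Lef1, -3.74 for Sp5, -1.43 for Tcf7l1 and 0.36 for Tcf7.

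The media differ in more than the GSK3 inhibitor. Serum, the MEK inhibitor and the deposited table differ together with it, feeders are named for SL alone, and the parts of these cannot be told apart. Of the 17 fibroblast markers tested, 16 were lower and 1 (Fn1) higher in 2i floxed, with a median log2 difference of -2.69. All 7 tested genes that respond to ERK, such as Dusp6 and Egr1, were lower, with a median of -3.19. Of these, 8 fibroblast markers and 4 ERK response genes reached the expression minimum through SL alone. The part of either in the members' differences was not tested. Of the 10 embryonic stem cell markers 8 were lower and 2 higher in 2i floxed, with a median of -0.66. Over all genes 43.2% were lower and 22.2% higher. After scaling 5 of these markers were lower and 2 higher, and their part was not tested. In bulk RNA, fewer cells of one type and less RNA per cell cannot be told apart. Between SL deleted and SL floxed libraries the fibroblast sum differed without overlap, at 728 to 835 against 521 to 562 FPKM. Of the tested members, Axin2, Lef1, Sp5, Tcf7l1 and Notum overlapped there. Tcf7 was lower in SL deleted libraries and Apcdd1 higher, both without overlap, but neither passed by limma (adjusted p 0.528 and 0.876). The share of all genes that separate in this way was not counted. A relation of the members to the fibroblast sum was not tested. WT cells grew in serum without feeders, and Col3a1, Dcn, Lum and Prrx1 were listed at 0 in both WT libraries. Of the 20 fibroblast markers 5 were at 1 FPKM or more in both, among them Fn1 at 65.8 and 50.3 FPKM. Axin2 stood at 1.11 and 2.09 FPKM in WT, below the 4.88 and 4.28 FPKM of 2i floxed cells of the other line. Lef1 in WT stood at 0.128 and 0.153 FPKM against 3.30 and 2.62 FPKM in 2i floxed. Line and medium differ between these groups, and no test was made across them.

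The same change of medium was measured in the libraries labelled deleted, which share no library with the floxed contrast. Lef1 fell by 3.67 on the log2 scale (SE 0.13, adjusted p 1.05e-05), a 27.6-fold lower mean FPKM. Sp5 fell by 2.07 (SE 0.12, adjusted p 3.54e-05) and Axin2 fell by 0.75 (SE 0.10, adjusted p 0.000741), a 1.78-fold lower mean. Apcdd1 was higher by 0.45 (SE 0.11, adjusted p 0.0115), and Tcf7 fell by 0.27 (SE 0.09, adjusted p 0.0379). Tcf7l1 had a log2 difference of 0.14 (95% interval -0.32 to 0.60, adjusted p 0.537; 0.45 and 0.00284 without replicate 1 of SL deleted) and Notum 0.08 (adjusted p 0.724). In all, 1 of 7 tested members was higher and 4 were lower, with a median of -0.27 against -0.05 over all 12294 genes, of which 30.9% were called higher and 35.8% lower. The Tcf7 call was lost after scaling (-0.17, adjusted p 0.134), in 2 of the other alternative fits and in 3 of 4 fits that left out a library, with adjusted p from 0.00168 to 0.214 in those 4. The Apcdd1 call was lost without replicate 1 (adjusted p 0.12) or replicate 2 (adjusted p 0.0828) of 2i deleted. Lef1 and Sp5 could enter this test only through their SL level. Here 16 of 17 tested fibroblast markers were lower (median -3.00) and all 7 ERK response genes were lower (median -2.66), 10 and 2 of them above the minimum in SL alone, and their part was not tested.

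**Figure D2:**
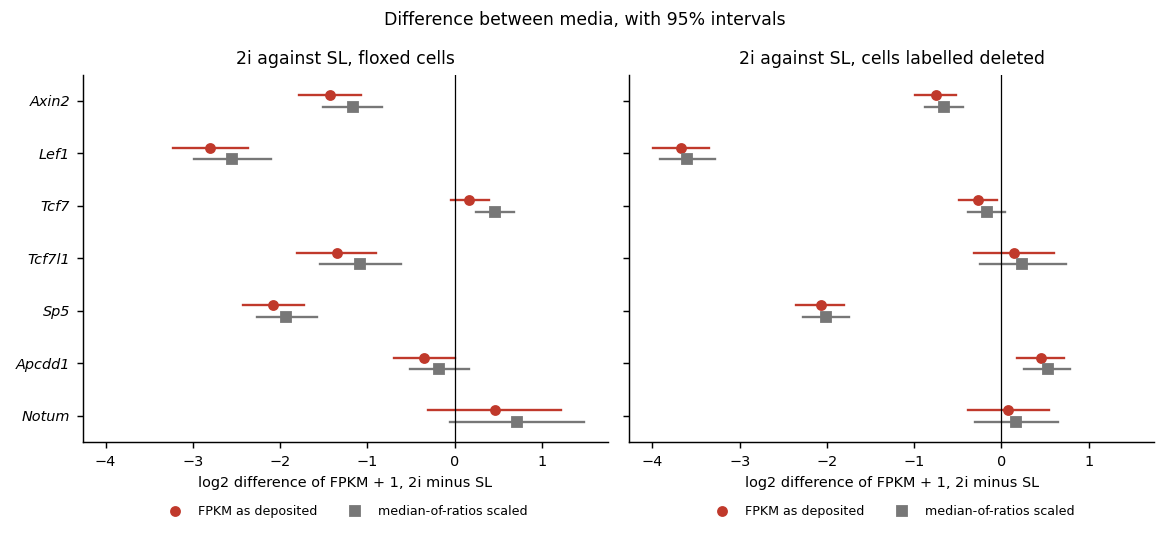
Log2 difference of FPKM + 1, 2i minus SL (horizontal axis), for the 7 tested members in floxed cells (left) and cells labelled deleted (right); symbols are estimates from 2 against 2 libraries, as deposited or after median-of-ratios scaling, and lines are 95% intervals from limma. Lef1, Sp5 and Axin2 lie left of 0 in both panels, and Tcf7l1 in floxed cells alone, at -1.35. Sp5 in both panels and Lef1 in cells labelled deleted reached the expression minimum in SL alone.

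The rest of the pathway was examined by role in the floxed cells. By the same call 43.2% of all genes were lower and 22.2% higher in 2i floxed, and the list counts are descriptions. Among Wnt ligands and their secretion factors, 8 of 21 were tested, and 6 were lower and 2 higher in 2i. The direction of 7 of these 8 was fixed by the filter, since 6 reached 1 FPKM on average in SL alone and 1 (Wnt11) in 2i alone, so the count is a description. Wnt8a, an embryonic ligand, was at 4.61 and 4.24 FPKM in SL and listed at 0 in both 2i libraries (adjusted p 1.54e-05). Porcn, which attaches the lipid that Wnt proteins need, was at 8.80 and 7.63 FPKM in SL and 1.00 and 0.886 FPKM in 2i (log2 difference -2.24, adjusted p 2.67e-05). Wls, which carries Wnt proteins to the cell surface, was at 5.55 and 7.02 FPKM in SL and 0.579 and 0.558 FPKM in 2i (-2.21, adjusted p 3.64e-05). Wnt7b, the 1 gene above the minimum in both groups, went the other way, from 1.17 and 1.10 FPKM to 4.45 and 4.71 FPKM (1.39, adjusted p 0.000141). After scaling, 5 of this list were lower and 2 higher.

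Of 17 tested receptors, co-receptors and R-spondins, 11 were lower and 2 higher, against 43.2% lower and 22.2% higher over all genes. Of the lower ones 6, Fzd6 and Rspo1 among them, reached the minimum in SL alone; the 11 genes above it in both groups held 5 lower and 2 higher, with a median of -0.34. Lgr4, an R-spondin receptor, was at 26.5 and 28.5 FPKM in SL and 8.48 and 7.35 FPKM in 2i (log2 difference -1.68, adjusted p 4.43e-05). The Frizzled receptors Fzd6 (-1.78, adjusted p 4.74e-05) and Fzd2 (-1.63, adjusted p 0.000133) and the ligand Rspo1 (-1.70, adjusted p 9.83e-05) were lower as well. After scaling 9 receptors were lower and 2 higher. Of 5 tested secreted inhibitors, Dkk3 (1.21, adjusted p 0.000326) and Sfrp1 (0.83, adjusted p 0.00194) were higher and Sfrp2 was lower (-0.93, adjusted p 0.00304).

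Of 11 tested genes of beta-catenin and its destruction complex 2 were higher and 2 lower, with a median of -0.01. The shares over all genes were 22.2% higher and 43.2% lower. Ctnnb1, which encodes beta-catenin, was at 205 and 214 FPKM in SL and 232 and 219 FPKM in 2i (log2 difference 0.10, adjusted p 0.337), and after scaling it was called higher (0.39, adjusted p 0.00795). The Dishevelled gene Dvl2 was higher (1.05, adjusted p 9.03e-05), as was the kinase gene Csnk1a1 (0.45, adjusted p 0.00313). Amer1, an APC-binding membrane protein above the minimum in SL alone, was lower (-1.18, adjusted p 0.000532). Axin1, the scaffold that Axin2 can replace, was also lower (-0.52, adjusted p 0.00377), a call lost after scaling (-0.24, adjusted p 0.0916). After scaling the list held 4 higher and 1 lower.

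Of 11 tested nuclear cofactors, 6 were lower and 2 higher, with a median of -0.76. The shares over all genes were 43.2% lower and 22.2% higher. The Groucho-family corepressor gene Tle4 went from 41.3 and 33.6 FPKM in SL to 6.80 and 5.53 FPKM in 2i (log2 difference -2.42, adjusted p 2.22e-05), whereas its relative Tle3 went from 37.3 and 47.1 FPKM to 131 and 124 FPKM (1.58, adjusted p 5.38e-05). Aes, a short Groucho-family member, was higher (1.39, adjusted p 4.80e-05) and the corepressor gene Ctbp1 lower (-1.43, adjusted p 4.90e-05).

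Among other genes known as Wnt targets in some tissues, 5 of 6 tested were lower and 0 higher, against 43.2% lower and 22.2% higher over all genes. Myc, Fgf8, Nkd2 and T reached the minimum in SL alone, and of the 2 genes above it in both groups 1, Ccnd1, was lower. Myc, a growth regulator, was at 15.1 and 8.48 FPKM in SL and 0.158 and 0.228 FPKM in 2i (log2 difference -3.37, adjusted p 3.73e-05). Ccnd1, which encodes cyclin D1, was lower (-1.55, adjusted p 6.89e-05), as were Fgf8 (-1.80, adjusted p 0.000104) and Nkd2 (-1.08, adjusted p 0.000772). Pluripotency genes known to be repressed by Tcf7l1 went mostly upward: 4 of 5 were higher and 1 lower, with a median of 1.43. Tfcp2l1 rose by 2.10 (adjusted p 0.000113), Esrrb rose by 1.76 (adjusted p 1.59e-05) and Tbx3 rose by 1.43 (adjusted p 0.000352), while Klf2 fell by 0.65 (adjusted p 0.00101). All 5 kept their call and direction after scaling.

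**Figure D3:**
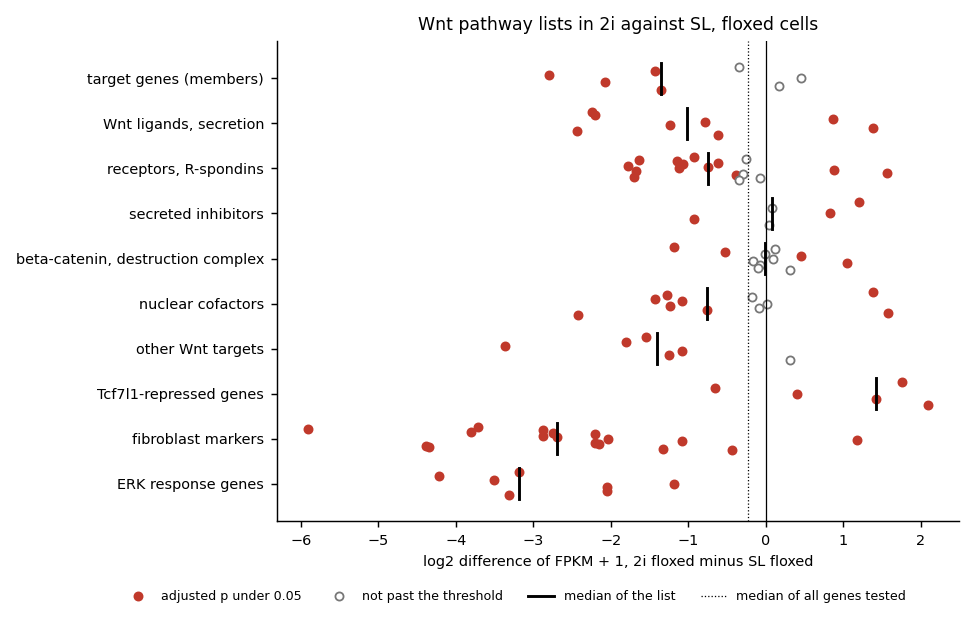
Log2 difference of FPKM + 1, 2i floxed minus SL floxed (horizontal axis), for each tested gene of the members, 7 pathway lists and 2 marker lists (rows); filled points passed an adjusted p of 0.05, bars are list medians and the dotted line is the median of all genes, -0.23. The members' median is -1.35, or -0.85 for the 6 above the expression minimum in both groups, and that of the Tcf7l1-repressed genes is 1.43.

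In the libraries labelled deleted, the same lists were set against each other in 2i and SL. There 35.8% of all genes were called lower and 30.9% higher, and the list counts are descriptions. Of 8 tested ligands and secretion factors 7 were lower and 1 higher, led by Porcn (-2.70, adjusted p 2.42e-05), Wls (-2.03, adjusted p 4.09e-05) and Wnt8a (-1.94, adjusted p 4.58e-05). Of these 8, 5 reached the minimum in SL alone, Porcn and Wnt8a included, and the other 3 held 2 lower and 1 higher. Of 16 tested receptor genes 9 were lower, led by Lgr4 (-1.42, adjusted p 0.000156), and 1 was higher (Lrp5, 1.16, adjusted p 0.000606). The 12 receptor genes above the minimum in both groups held 5 lower and 1 higher. The destruction complex list held 7 higher and 1 lower of 11, with Btrc, the ubiquitin ligase subunit that recognises beta-catenin, at 0.99 (adjusted p 0.000268). Of 12 tested cofactors 7 were lower and 3 higher, and of 6 other targets 3 were lower, namely Ccnd1 (-2.57, adjusted p 1.03e-05), Myc (-3.24, adjusted p 4e-05) and Fgf8 (-1.56, adjusted p 0.000179), the last 2 above the minimum in SL alone. Of the secreted inhibitors 2 of 5 were lower and 1 higher. Of the Tcf7l1-repressed genes 4 of 5 were higher, led by Esrrb (1.63, adjusted p 7.58e-05).

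The second question was whether the targets changed with Foxd3 deletion. In SL, 0 of 7 tested members passed the test. Tcf7 had a log2 difference of -0.29 (95% interval -0.57 to -0.01, adjusted p 0.528), Lef1 -0.28 (-0.70 to 0.14, adjusted p 0.752) and Axin2 -0.13 (-0.47 to 0.22, adjusted p 0.914). Sp5 stood at 0.08 (-0.30 to 0.45), Tcf7l1 at -0.07 (-0.71 to 0.58), Apcdd1 at 0.19 (-0.21 to 0.59) and Notum at 0.10 (-0.80 to 1.01). The median of the members was -0.07, against -0.01 over 12024 genes. Few genes passed at all: 0.00832% of all genes, or 1 gene, by limma, where 1097 had an unadjusted p under the threshold. By the authors' deposited p-values, adjusted here, 0.535% passed and 0 members did, with adjusted p of 0.77 for Tcf7 and 1.0 for the other 9. Foxd3 itself had a log2 difference of -1.06 in SL (adjusted p 0.137), which passed in the fit pooled over 12 libraries (adjusted p 0.00966) and without replicate 1 (0.0479) or replicate 2 (0.00405) of SL deleted. None of the 7 pathway lists had a member past the threshold. The smallest adjusted p among them belonged to Wnt7b (1.44, adjusted p 0.142) and Tbx3 (1.42, adjusted p 0.186).

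In 2i the libraries labelled deleted differed from the floxed ones in all 6 tested members, 3 higher and 3 lower. Tcf7l1 was higher by 1.43 on the log2 scale (SE 0.08, adjusted p 5.31e-06), a 2.81-fold higher mean FPKM. Apcdd1 was higher by 0.98 (SE 0.10, adjusted p 7.52e-05), a 2.86-fold higher mean, and Axin2 was higher by 0.55 (SE 0.10, adjusted p 0.00131), a 1.56-fold higher mean. Lef1 fell by 1.15 (SE 0.13, adjusted p 0.000123), a 3.76-fold lower mean, and Tcf7 fell by 0.73 (SE 0.06, adjusted p 2.52e-05), a 1.68-fold lower mean. Notum fell by 0.28 (SE 0.11, adjusted p 0.0449). Among the TCF and LEF genes, Lef1 and Tcf7 were lower, Tcf7l1 was higher and Tcf7l2 did not pass (0.18, adjusted p 0.166 by limma). Lef1 passed the expression minimum through the floxed libraries alone, so the filter fixed its direction, and Sp5 was under the minimum in both groups.

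The share called in this comparison was large, with 47.9% of all 11637 genes called higher and 19.7% lower, and Foxd3 was not called lower by either test (adjusted p 0.461 by limma, and higher with 9.43e-06 by the authors' deposited p-values adjusted here), so these are differences between the libraries as labelled. The members' median was 0.14 and that of all genes 0.19. Scaling brought the latter to -0.02 and the calls from 5573 higher and 2291 lower to 3509 higher and 3921 lower, and all 6 members kept their call and direction. The Notum call was lost in 3 of 5 other fits and in 3 of 4 fits without a library, with adjusted p of 0.0141 to 0.375 in the latter. The Axin2 call was lost in the fit pooled over 12 libraries (adjusted p 0.157). By the authors' deposited p-values, adjusted here, 40.8% of genes passed, and the authors' deposited table gave folds of 1.34 for Axin2 (adjusted p 0.00172), 2.34 for Tcf7l1, 2.34 for Apcdd1, -4.39 for Lef1, -1.97 for Tcf7 and -1.37 for Notum (adjusted p 0.00839), negative where the labelled deleted group was lower. Fibroblast markers were higher for 6 of 9 tested and lower for 1 in the libraries labelled deleted. The lower one, Thy1, reached the minimum in the floxed libraries alone. ERK response genes were higher for 5 of 5, and 4 of them passed after scaling. Dusp6 and Phlda1 reached the minimum in the libraries labelled deleted alone, so the filter fixed their direction, and Egr1 and Spry4 were under it in both groups. The part of either list in the members' differences was not tested.

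Among the pathway lists in this comparison, 3 of 4 tested ligand and secretion genes were higher: Wnt7b, at 4.45 and 4.71 FPKM in floxed and 16.2 and 16.8 FPKM in libraries labelled deleted (log2 difference 1.65, adjusted p 4.23e-06), Wls (0.94, adjusted p 7.93e-05) and Wnt9a (0.51, adjusted p 0.00179). Wls and Wnt9a reached the minimum in the libraries labelled deleted alone and Wnt11 in the floxed ones alone, so the filter fixed the direction of these 3. Wnt11 was lower, from 2.07 and 2.17 FPKM to 0.181 and 0.127 FPKM (-1.43, adjusted p 1.35e-05). Of 12 receptor genes 4 were higher and 2 lower, which became 2 higher and 5 lower after scaling. The lower ones were Lrp5 (-0.54, adjusted p 0.00026) and Fzd9 (-0.83, adjusted p 0.000425). The secreted inhibitors Dkk3 (-1.76, adjusted p 5.31e-06) and Sfrp2 (-1.25, adjusted p 2.28e-05) fell, and 3 of 5 on that list were lower and 1 higher. In the destruction complex 6 of 11 were higher and 3 lower, among them Btrc (1.15, adjusted p 1.93e-05) and Dvl3 (1.00, adjusted p 9.17e-05), with 5 higher and 4 lower after scaling. Of 12 cofactors 8 were higher and 3 lower, with Tle3 lower (-0.69, adjusted p 2.08e-05) and Bcl9l, a beta-catenin adaptor, higher (1.3, adjusted p 3.2e-05). In these counts Fzd8, Amer1 and Tle2 reached the minimum in the libraries labelled deleted alone, so the filter fixed their higher direction. Over all genes 47.9% were called higher and 19.7% lower, and the list counts are descriptions. T, the mesoderm gene Brachyury, above the minimum in the libraries labelled deleted alone, was higher (0.98, adjusted p 6.3e-05) and Ccnd1 lower (-1.11, adjusted p 2.6e-05). Tcf7l1-repressed genes were higher for 4 of 5, beside the higher Tcf7l1: Tbx3 (1.67, adjusted p 3e-06), Nanog (0.95, adjusted p 4.02e-06), Tfcp2l1 (0.87, adjusted p 8.86e-06) and Klf2 (0.52, adjusted p 0.00121).

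Whether the contrast of libraries labelled deleted with floxed ones differed between media was tested directly over the 8 libraries of the floxed line. This test, the floxed medium contrast and the 2i deletion contrast share libraries, so they do not support each other. The term was positive for Tcf7l1 (1.49, SE 0.33, adjusted p 0.0156), Apcdd1 (0.80, SE 0.17, adjusted p 0.0146) and Axin2 (0.67, SE 0.17, adjusted p 0.0268). It was negative for Lef1 (-0.87, SE 0.25, adjusted p 0.0374) and Tcf7 (-0.44, SE 0.13, adjusted p 0.0365). Sp5 (0.01, adjusted p 0.974) and Notum (-0.38, adjusted p 0.575) did not pass. Thus 5 of 7 members passed, against 23.9% of all 12497 genes. Axin2 did not pass after scaling (0.50, adjusted p 0.0626). Leaving out 1 of the 8 libraries ended the call of Tcf7l1 in 2 fits, of Apcdd1 in 4, of Axin2 in 4, of Tcf7 in 5 and of Lef1 in 7, with adjusted p up to 0.0706, 0.0639, 0.107, 0.13 and 0.128 in that order.

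With Foxd3 overexpression, 0 of 5 tested members passed. Tcf7 had a log2 difference of 0.60 (95% interval 0.24 to 0.96, adjusted p 0.0957), Tcf7l1 0.59 (0.14 to 1.04, adjusted p 0.151) and Apcdd1 0.41 (0.02 to 0.80, adjusted p 0.219). Axin2 stood at 0.17 (-0.82 to 1.17, adjusted p 0.838) and Notum at -0.68 (-1.61 to 0.24, adjusted p 0.368). Both tetON Foxd3 libraries lay above both WT libraries for Tcf7, Tcf7l1 and Apcdd1, while Axin2 and Notum overlapped. The share of all genes that separate in this way was not counted, so this is a description. The members' median was 0.41, against 0.03 over 11972 genes, of which 2.64% passed, and 2486 had an unadjusted p under the threshold. Lef1 and Sp5 were under the expression minimum in both lines. By the authors' deposited p-values, adjusted here, 4.55% of genes and 0 members passed, the smallest being Nkd1 (adjusted p 0.0605, with a fold of 2.57 in the authors' deposited table) and Tcf7 (adjusted p 0.0797).

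A few other pathway genes passed in this comparison. Sfrp2 was higher, at 53.5 and 27.6 FPKM in tetON Foxd3 against 5.42 and 7.12 FPKM in WT (log2 difference 2.45, adjusted p 0.033), as were Fzd2 (1.49, adjusted p 0.025) and Tnfrsf19 (1.37, adjusted p 0.0298), a receptor of the TNF family. Porcn fell from 20.6 and 23.0 FPKM to 7.85 and 7.89 FPKM (-1.36, adjusted p 0.0177). Of the Tcf7l1-repressed genes Tbx3 fell by 1.04 (adjusted p 0.0177) and Nanog fell by 0.48 (adjusted p 0.0497), and 0 of 5 rose. In the destruction complex and cofactor lists 0 of 11 passed in each.

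**Figure D4:**
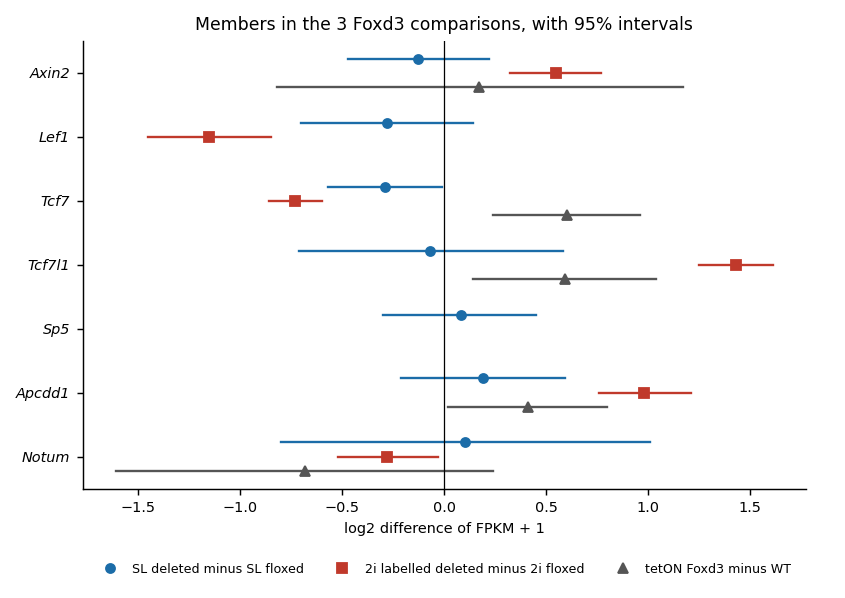
Log2 difference of FPKM + 1 (horizontal axis) of the tested members in the 3 Foxd3 comparisons, each of 2 against 2 libraries; lines are 95% intervals from limma, and a missing symbol means that the gene was under the expression minimum. The 2i estimates for Tcf7l1 (1.43), Apcdd1 (0.98) and Lef1 (-1.15) lie farthest from 0; in SL and overexpression 0 members passed.

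The pattern of Axin2 over the 12 libraries was set against 6083 genes that varied between groups. The 5 genes most like it by Pearson correlation of log2(FPKM + 1) were Sertad4 (0.981), the chromatin remodelling gene Bptf (0.968), the claudin genes Cldn6 (0.968) and Cldn7 (0.957) and Acta2 (0.959), which is one of the 20 fibroblast markers. Mean FPKM of Cldn6 was 65.4 in SL floxed, 58.7 in SL deleted, 12.2 in 2i floxed, 22.8 in 2i labelled deleted, 8.22 in WT and 9.17 in tetON Foxd3. The correlation with Axin2 was 0.863 for Lef1 (rank 181), 0.818 for Sp5 (rank 298), 0.69 for Tcf7 and 0.008 for Tcf7l1. The 12 points share groups, media and tables, so these are descriptions.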

How the data were processed

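Polyadenylated RNA was sequenced in 12 libraries, in 6 groups of 2. The authors deposited 3 tables, 1 per comparison; the one for 2i lists 19718 genes and the others 19996. Their columns, per the file headers, are FPKM per library, a mean read signal per group, a signed fold change and an unadjusted p-value. The submitters' processing notes name TopHat2, Cufflinks, DESeq2, SAMtools and FastQC, with mm10 and GRCm38 as builds and no tool versions. The medium of each deletion table was read from its name and columns. Gene positions come from GENCODE M21 (GRCm38).

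Tests used limma 3.58.1 in R 4.3.3, with a mean-variance trend, on log2(FPKM + 1). They ran over genes whose mean reached 1 FPKM in 1 or more of the compared groups. Each comparison of 2 groups had 4 libraries and 2 residual degrees of freedom. The test of the difference between media used 8 libraries and had more, and fits with a replicate block had fewer than without it. Benjamini-Hochberg adjustment ran over all genes tested, with a threshold of 0.05. The fold on this scale understates low genes. The fit was tested on simulated data. Contrasts between media join 2 deposited tables by gene ID. Between 2i floxed and SL floxed, the ratio of FPKM to the share of mean reads had a median log2 of -0.149 over 9271 genes, so the tables are not on quite the same scale, and scaled fits are given. The authors' deposited p-values are rounded, so some are listed as 0.

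The members and the gene lists were chosen with earlier results of these data known. All 10 members are named. Of each list, up to 4 genes per comparison with the smallest adjusted p past the threshold were to be named, and Foxd3 as a label check; Ctnnb1 was added after its values were seen. Where fewer appear, they are the first of that order, except that Lrp5 was singled out after its values were seen as the only higher receptor gene in the labelled deleted medium contrast. In the list of the destruction complex, Fam123b is an older name of Amer1. Alternatives were another pseudocount (0.1 FPKM), no filter, median-of-ratios scaling, a replicate block, a pooled fit, the authors' p-values and leaving out each library.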

Additional observations from a re-analysis of the deposited data

Results flagged for a closer look

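The effect of the deleted label differed between 2i and SL, by the test of that difference in limma over 8 libraries, for the genes below; values are the 2i effect minus the SL effect on the log2 scale of FPKM + 1. In SL itself no member or pathway gene passed. Among the members the difference was 1.49 for Tcf7l1, 0.80 for Apcdd1, 0.67 for Axin2, -0.87 for Lef1 and -0.44 for Tcf7.

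In the destruction complex it was 1.19 for Amer1, 1.00 for Btrc, 0.75 for Dvl1 and -0.47 for Dvl2. Among nuclear cofactors it was 0.83 for Ctbp1, 0.76 for Tle4, -0.61 for Tle3 and -0.51 for Ctnnbip1. Among receptors it was 0.93 for Fzd5, 0.81 for Fzd8, 0.78 for Fzd2 and -0.71 for Fzd9. Among ligands it was -1.44 for Wnt11 and 0.50 for Wnt8a, which was listed at 0 in both 2i floxed libraries. The inhibitor Dkk3 had -1.86 and the cell cycle gene Ccnd1 had -1.02. Of the Tcf7l1-repressed genes, Nanog had 0.65 and Klf2 had 0.52, and neither passed after median-of-ratios scaling (adjusted p 0.052 and 0.156). Tle4 did not pass then either (adjusted p 0.067).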

How the results depend on the processing

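Lef1, Axin2 and Tcf7l1 kept their lower call between media in floxed cells under the 6 alternative fits with all libraries. They kept their direction in the 4 fits without a library. Sp5 did the same, but it reached the expression minimum in SL alone, so the filter fixed its direction in the filtered fits. In floxed cells the count of members called higher, 0 as reported, was 1 after scaling, 1 with the replicate block (Notum) and 0 to 1 without a library. In the medium contrast of libraries labelled deleted it ranged from 0 to 2 without a library.

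Labels give replicates shared numbers but no shared source. Deviations of same-numbered libraries correlated at 0.602 in SL deletion, 0.600 in overexpression, -0.0527 in the labelled deletion in 2i, -0.0911 in the labelled deleted medium contrast and -0.100 in the floxed one. With a replicate block, members called lower in SL deletion went from 0 to 2 (Lef1, adjusted p 0.0296, and Tcf7, 0.0137). Genes called went from 1 to 1997, with Foxd3 at an adjusted p of 1.15e-16. That block left fewer residual degrees of freedom than the main fit. In overexpression members called went from 0 to 2 higher and 1 lower, and genes from 316 to 2473. A crossed block in the floxed medium contrast, chosen after seeing the data, called 1 member higher and 8414 genes, against 7930 with the block as numbered.

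Genes called in SL deletion were 172 in the pooled fit, 107 by the authors' p-values and 1 to 313 without a library. In overexpression they were 0 without a filter (3232 at an unadjusted p under 0.05), 1727 in the pooled fit, 909 by the authors' p-values and 42 to 342 without a library; the pooled fit called 2 members higher. For the difference between media, genes called ranged from 683 to 3761 without a library, members called higher from 0 to 3 and lower from 0 to 3. Members called lower were 0 without a filter and 1 in the pooled fit.

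Directions that turned were all of members not called. Ranges without a library follow. Notum ran from -0.12 to 1.04 in the floxed medium contrast, from -0.18 (and -0.06) to 0.34 in the labelled deleted one, from -0.48 (and -0.16) to 0.68 in SL deletion and from -0.95 to 0.20 for the difference between media, and was -0.01 in SL deletion by the authors' table. Tcf7l1 ran from -0.17 to 0.45 in the labelled deleted medium contrast and from -0.38 to 0.25 in SL deletion. Axin2 ran from -0.26 to 0.01 in SL deletion and from -0.37 (and -0.10) to 0.72 in overexpression. Sp5 ran from -0.04 to 0.19 in SL deletion and from -0.11 (and -0.02) to 0.13 for the difference between media, where it was -0.04 after scaling. The causes were not tested. The unknown depth of single libraries limits what can be said of genes under 1 FPKM.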

Other observations

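Genes of the primitive streak, the embryonic tissue where Wnt signals induce mesoderm, did not move as a group. In floxed cells 3 of the 6 found in the tables were tested: Gsc was higher in 2i (log2 difference 1.10, adjusted p 0.000621), while Eomes (-1.13, adjusted p 0.00446) and T (-1.25, adjusted p 0.0247) were lower by limma. Eomes, T and Dab2 reached the expression minimum in SL alone. T varied between replicates in SL, at 4.72 and 1.11 FPKM in floxed and 10.3 and 2.46 FPKM in deleted libraries, and was at 0.454 and 0.462 FPKM in 2i floxed. Of the primitive endoderm genes Lama1 was higher (1.31, adjusted p 0.000168) and Dab2 lower (-1.60, adjusted p 0.000873).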
